A study of Mus musculus with 4 samples.

Results

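The genes described here are members of the BCL2 family, the proteins that decide at the mitochondrial surface whether a cell survives or dies, in IgA-positive cells of the mouse small intestine. They were chosen by gene symbol from 9 names, 3 anti-apoptotic (Bcl2, Bcl2l1, Mcl1) and 6 pro-apoptotic (the BH3-only genes Bcl2l11, Bbc3, Pmaip1 and Bid and the effectors Bax and Bak1). Of the 9 names 8 matched the platform's probe-to-gene annotation, which names 18193 genes in all, with 27 of the 45037 probe sets that are not controls; Bax is not analysed here. Gene expression had been measured on 4 Affymetrix 3' expression arrays, 1 per sample. The cells came from the intestine of untreated female Balb/c mice aged 9 weeks, whose sample titles carry "WT", and had been separated into a CD11b+ IgA+ fraction (CD11b-positive, 2 arrays) and a CD11b- IgA+ fraction (CD11b-negative, 2 arrays). CD11b, or integrin alpha M, is widely used as a marker of myeloid cells. In each fraction 1 array (replicate 1) was made from 1 µg of RNA with the One-Cycle labelling kit and 1 (replicate 2) from 0.1 µg of RNA with the 3' IVT Express kit, so each kit holds both fractions. Where 2 signals of a fraction are given, the One-Cycle array comes first. The labels do not say whether arrays came from separate animals or sorts, how many animals were pooled, or how pure the fractions were. The p-values thus reflect the spread among these 4 samples alone, which may be technical, and precision is limited by there being only 4 arrays.

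A signal is the brightness of a probe set, a group of short probes for one transcript region, after quantile normalization, which gives every array the same distribution. Probe sets differ in how well they bind, so levels are compared between arrays for the same probe set. Where signals are summed over a list of markers, the bright probe sets weigh most. Differences are on the scale of log2(signal + 3), CD11b-positive minus CD11b-negative, which understates changes of weak probe sets. Deposited array medians ran from 17.5 to 18.3 in the CD11b-positive and from 14.7 to 16.1 in the CD11b-negative arrays, so the signals needed rescaling. Itgam, the gene of CD11b, had signals of 189 and 109 in the CD11b-positive arrays, against 28.3 and 15.8 in the CD11b-negative arrays, a 6.04-fold difference in the direction of the labels (limma adjusted p = 0.903, and 1.43e-06 with the kit as a replicate block). All 12 plasma cell markers looked at were above the low-signal filter. Markers of other cell types were present as well and are given after the members. The arrays measure bulk RNA, so fewer cells of a type and less RNA per cell cannot be told apart.

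BCL2-family proteins share short homology (BH) segments. Bcl-2, Bcl-xL (the main product of Bcl2l1) and Mcl-1 hold the effectors Bax and Bak in check; when BH3-only proteins such as Bim (Bcl2l11), Puma (Bbc3), Noxa (Pmaip1) and Bid outweigh them, Bax and Bak open the outer mitochondrial membrane, cytochrome c escapes and caspases are activated. Mature plasma cells depend on Mcl-1, which signalling through the receptor BCMA helps to maintain, whereas many resting B cells depend more on Bcl-2. Bim and Puma are known to be induced by forkhead (FOXO) transcription factors when survival signals are withdrawn, and Bcl2 transcription by CREB, which binds the cyclic AMP response element (CRE), in B cells.

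To show the regulatory sequence behind these 3 genes, the RefSeq promoters of the members (GRCm38.p6, from 250 bases before to 50 after each annotated start) were searched on both strands for the forkhead core GTAAACA and the CRE core TGACGT, motifs that do not overlap. The 13 promoters belong to Bcl2, Bcl2l1, Mcl1, Bcl2l11, Bbc3, Bid, Bax and Bak1, and Pmaip1 is not among them. The forkhead core is in 2 of the 13 and in 3.65% of all 32851 promoters. It lies in 1 of the 2 Bcl2l11 promoters, starting 227 bases before the start site. In 1 of the 3 Bbc3 promoters it lies on the opposite strand, 167 bases before the start site, and reads TGTTTAC on the gene's strand. The CRE core is in 1 of the 13, that of Bcl2, 107 bases before the start, and in 7.51% of all promoters. The 80 bases that hold each match are given on the gene's strand with the match in capitals, for Bcl2 from chr1:106714355-106714434 (minus strand), for Bcl2l11 from chr2:128125788-128125867 (plus strand) and for Bbc3 from chr7:16310057-16310136 (plus strand). A match describes these letters only and does not show that a factor binds there.
Bcl2: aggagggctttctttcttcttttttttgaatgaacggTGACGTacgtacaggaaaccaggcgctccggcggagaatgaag
Bcl2l11: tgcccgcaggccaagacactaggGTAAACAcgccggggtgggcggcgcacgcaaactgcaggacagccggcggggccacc
Bbc3: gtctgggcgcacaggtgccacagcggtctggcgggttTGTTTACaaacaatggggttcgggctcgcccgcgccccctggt

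The question addressed is whether the CD11b-bearing part of the IgA-positive cells had another set of survival and death transcripts than the rest. Across the family the differences were small, and none passed the planned limma test, which has no block for the kit. That test called 0 probe sets on the whole array, not even that of Itgam, so the lack of calls does not show equal levels. With the kit as a replicate block 2 member probe sets were called, as given below. The tilt was towards lower signals in the CD11b-positive fraction for Bcl2, Bbc3, Pmaip1 and the brightest probe set of Bcl2l11, and towards higher signals for Bid and Bak1, while Mcl1 lay close to 0. Of the 27 probe sets 24 were above the low-signal filter, a mean signal of 10.6, and were tested; the other 3 are described by value only. By limma, called at a Benjamini-Hochberg adjusted p under 0.05, 0 of the 24 and 0 of all 27022 tested probe sets differed (0% called). At an unadjusted p under 0.05, 1 of the 24 passed, against 1403 of all probe sets (5.19%). The same model with the kit as a replicate block called 2 of the 24 as lower, 1 probe set each of Bcl2 and Bcl2l11, and 0 as higher. Over all tested probe sets that fit called 2.67% as lower and 2.46% as higher, 5.13% in all. That fit has 1 residual degree of freedom for each probe set, to which limma adds 19.4 prior degrees of freedom estimated over all of them. With 2 arrays a fraction the smallest p of an exact permutation test is 0.333, so none is given.

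Taken by the brightest probe set of each gene, 6 of the 8 genes were lower in CD11b-positive cells with both kits and 2, Bid and Bak1, were higher in both. Among all 12650 genes taken the same way, 30.5% were lower and 31.6% higher with both kits. Counted by probe set, 13 of the 24 were lower with both kits (28.8% of all tested), 6 were higher with both (31.9%) and 5 went opposite ways (39.3%). Probe sets of a gene share its transcripts and are not independent: 8 of these 13 belong to Bcl2 and Mcl1. In 9 of the 24 the arrays of the fractions did not overlap (33.7% of all tested), 7 of them lower (15.8%) and 2 higher (17.9%) in the CD11b-positive fraction. The median difference was -0.14 over the 24 probe sets, with quartiles of -0.35 and 0.071, and 0.016 over all tested, with quartiles of -0.25 and 0.27.

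**Figure D1:**
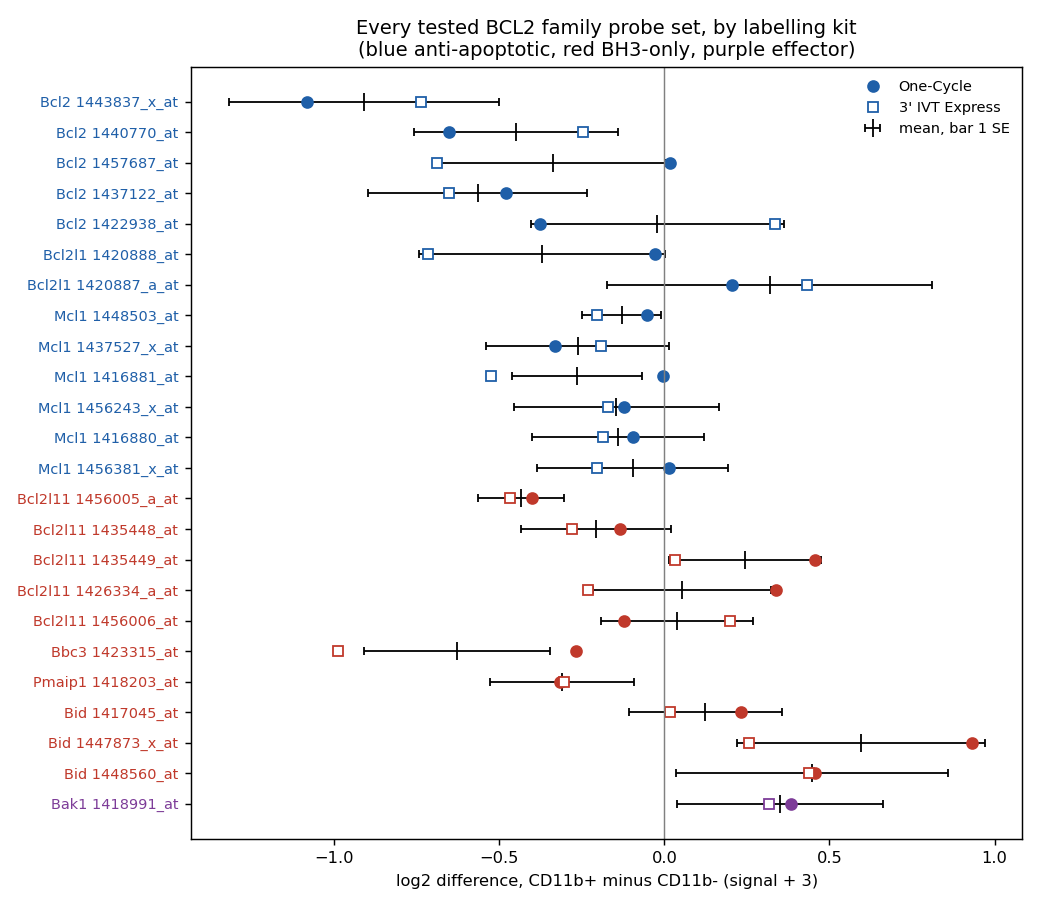
log2 difference between the CD11b-positive and the CD11b-negative fraction (horizontal axis, log2 of signal + 3) for each of the 24 tested probe sets, with filled circles for the One-Cycle kit, open squares for the 3' IVT Express kit and a tick with a bar of 1 SE from limma for the mean. The blue probe sets of Bcl2 and Mcl1 lie mostly left of 0, the 3 of Bid and that of Bak1 right of it, and Bcl2l11 on both sides.

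Among the anti-apoptotic genes taken by their brightest probe set, Bcl2 stood lowest in the CD11b-positive fraction relative to the CD11b-negative one. Its brightest probe set, 1443837_x_at, had signals of 172 and 106 in the CD11b-positive arrays, against 367 and 179 in the CD11b-negative arrays. Both CD11b-positive arrays lay below both CD11b-negative arrays, and within each kit the CD11b-positive array was lower. The means were 139 ± 46.5 for CD11b-positive and 273 ± 133 for CD11b-negative arrays (n = 2 each, SD), and the difference was -0.91 ± 0.41 (SE), or 1.88-fold lower (limma adjusted p = 0.968). It was -1.08 with the One-Cycle and -0.74 with the 3' IVT Express kit, and 3.62% of tested probe sets lay lower. With the kit as a replicate block, limma gave this probe set an adjusted p of 0.00149. The difference was -1.25 without CD11b-positive replicate 1 and -0.57 without the other CD11b-positive array. It was -0.40 without CD11b-negative replicate 1 and -1.42 without the other CD11b-negative array. Leaving out 1 array makes the kits uneven between the fractions. Such values, here and below, therefore also hold part of the kit difference, which was -0.85 for this probe set (3' IVT Express minus One-Cycle). The ending of its name marks probes that may bind other transcripts too.

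The 4 other Bcl2 probe sets gave smaller differences. Probe set 1437122_at had 55.8 and 77.5 in the CD11b-positive arrays, against 78.9 and 124 in the CD11b-negative arrays, a difference of -0.57 ± 0.33 (SE). It was the other one of the 5 whose fractions did not overlap. Probe set 1440770_at had 139.8 and 114 in the CD11b-positive arrays, against 221 and 136 in the CD11b-negative arrays, a difference of -0.65 with the One-Cycle and -0.25 with the 3' IVT Express kit. For 1457687_at the signals were 107 and 120.2 in CD11b-positive, against 105 and 196 in CD11b-negative arrays, a difference of 0.016 with the One-Cycle and -0.69 with the 3' IVT Express kit. The fifth, 1422938_at, had 66.8 and 55.4 in the CD11b-positive arrays, against 87.6 and 43.4 in the CD11b-negative arrays, and its difference was -0.38 with the One-Cycle and 0.33 with the 3' IVT Express kit, a mean of -0.021. The 5 differences thus spanned 0.89 log2 units within a gene, and 32.3% of the 257 genes with 5 tested probe sets spanned more. The limma adjusted p with the block was between 0.148 and 0.981 for these 4.

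Bcl2l1, whose main product Bcl-xL protects developing and activated lymphocytes, had 2 tested probe sets that disagreed. The brighter, 1420888_at, had 158 and 78.4 in the CD11b-positive arrays, against 161 and 131 in the CD11b-negative arrays. The CD11b-positive array of the 3' IVT Express kit stood apart from the other 3, and the difference was -0.37 ± 0.37 (SE), or -0.028 with the One-Cycle and -0.72 with the 3' IVT Express kit (limma adjusted p = 0.985). It was 0.12 without that array. The dimmer, 1420887_a_at, went the other way, with 39.6 and 21.5 in the CD11b-positive arrays, against 33.96 and 15.2 in the CD11b-negative arrays and a difference of 0.32 ± 0.49 (SE). Probe sets 1426050_at and 1426191_a_at were below the filter, at 2.44 and 2.41 against 2.44 and 7.99 and at 5.74 and 2.25 against 4.73 and 0.847 (CD11b-positive against CD11b-negative), where no fold is given. No direction can be read for Bcl2l1.

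Mcl1, the family member on which plasma cells rely, differed little. Its brightest probe set, 1448503_at, had 3734 and 3672 in the CD11b-positive arrays, against 3877 and 4231 in the CD11b-negative arrays. The CD11b-positive arrays were both lower, but the means of 3703 ± 44.03 for CD11b-positive and 4054 ± 250.1 for CD11b-negative arrays (n = 2 each, SD) differed by only 1.09-fold, a difference of -0.13 ± 0.12 (SE), or -0.054 with the One-Cycle and -0.20 with the 3' IVT Express kit (limma adjusted p = 0.985, and 0.455 with the block). The 6 probe sets of Mcl1 gave closely matching values, from -0.27 to -0.095. This span of 0.17 log2 units was narrower than in 98.3% of the 115 genes with 6 tested probe sets. Those genes were not matched to Mcl1 for brightness, and probe sets of a gene are not independent readings. The lowest difference was that of 1416881_at, with 842 and 757 in the CD11b-positive arrays, against 845 and 1089.6 in the CD11b-negative arrays. Probe set 1437527_x_at had 845 and 1325 in CD11b-positive, against 1065 and 1516 in CD11b-negative arrays. The remaining 3, 1456243_x_at, 1416880_at and 1456381_x_at, had signals between 607 and 943 in CD11b-positive and between 611 and 1062 in CD11b-negative arrays. Those 3 turned to the other sign, between 0.011 and 0.072 relative to all probe sets, on the signals as deposited and after scaling to the median or to a trimmed mean, so their sign is not settled. By the endings of their names 1437527_x_at, 1456243_x_at and 1456381_x_at may bind other transcripts too.

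**Figure D2:**
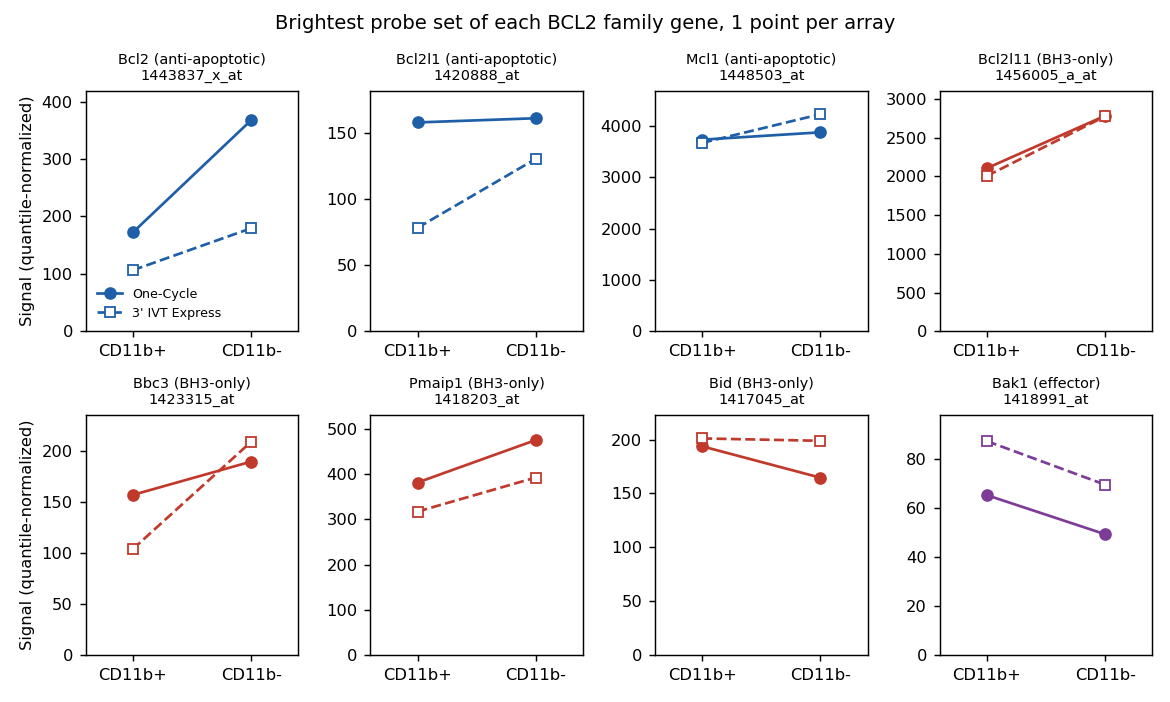
Quantile-normalized signal (vertical axis, linear, from 0) of the brightest probe set of each of the 8 genes in the CD11b-positive array (left) and the CD11b-negative array (right) of each kit, 1 point per array; lines join the 2 arrays of a kit (solid and filled for One-Cycle, dashed and open for 3' IVT Express). Both lines rise to the right for Bcl2, Bcl2l11, Bbc3 and Pmaip1, the line of 1 kit is nearly flat for Bcl2l1 and Bid, and both fall to the right for Bak1.

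Of the BH3-only genes, Bcl2l11 encodes Bim, the sensor of lost survival signals in lymphocytes, and had 5 tested probe sets. The brightest, 1456005_a_at, had signals of 2107 and 2007 in the CD11b-positive arrays, against 2785 and 2778 in the CD11b-negative arrays. Arrays of a fraction lay close together and the fractions did not overlap. The means of 2057 ± 71.1 for CD11b-positive and 2781 ± 4.96 for CD11b-negative arrays (n = 2 each, SD) differed by 1.35-fold, the CD11b-positive being lower, a difference of -0.44 ± 0.13 (SE), or -0.40 with the One-Cycle and -0.47 with the 3' IVT Express kit. It was the member probe set with the smallest unadjusted p (0.0145; limma adjusted p = 0.903, and 0.00357 with the kit as a replicate block). On leaving out 1 array in turn it ran from -0.47 to -0.40. The other probe sets of Bcl2l11 were mixed, and none was called in either fit. Probe set 1435448_at was also lower with both kits, at 849.7 and 1072 in CD11b-positive, against 932 and 1303 in CD11b-negative arrays. Probe set 1435449_at was higher with both, at 438 and 448 in CD11b-positive, against 319 and 438 in CD11b-negative arrays, a difference of 0.46 with the One-Cycle and 0.032 with the 3' IVT Express kit. Opposite signs in the 2 kits were found for 1426334_a_at (0.34 with the One-Cycle and -0.23 with the 3' IVT Express kit) and for 1456006_at (-0.12 with the One-Cycle and 0.20 with the 3' IVT Express kit). Bim is known to be made as several splice forms; which of them each probe set measures is not given in the sources used here.

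Bbc3 encodes Puma, a killer protein induced by p53 and by FOXO factors, and had 1 probe set, 1423315_at. Its signals were 157 and 104 in the CD11b-positive arrays, against 189.9 and 209 in the CD11b-negative arrays. The fractions did not overlap, and the difference was -0.63 ± 0.28 (SE), 1.55-fold lower in the CD11b-positive fraction (limma adjusted p = 0.968, and 0.054 with the block, just above the threshold). The difference was -0.27 with the One-Cycle and -0.99 with the 3' IVT Express kit; it was -0.34 without the CD11b-positive array of the 3' IVT Express kit (replicate 2) and -0.92 without CD11b-positive replicate 1. Pmaip1 encodes Noxa, the BH3-only protein that binds Mcl-1 and marks it for degradation. Its 1 probe set, 1418203_at, had 382 and 317 in the CD11b-positive arrays, against 476 and 393 in the CD11b-negative arrays. These means, 349 ± 45.4 for CD11b-positive and 434 ± 58.7 for CD11b-negative arrays (n = 2 each, SD), differed by 1.24-fold, with nearly the same value in both kits (-0.32 with the One-Cycle and -0.30 with the 3' IVT Express kit). All CD11b-positive arrays lay below all CD11b-negative ones, but the difference of -0.31 ± 0.22 (SE) did not pass (limma adjusted p = 0.983, and 0.209 with the block).

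Bid links the death receptors to the mitochondrion once caspase-8 has cut it, and its 3 probe sets were all higher with both kits in the CD11b-positive fraction. The brightest, 1417045_at, had 194 and 201 in the CD11b-positive arrays, against 165 and 199 in the CD11b-negative arrays, so the fractions overlapped and the difference was 0.12 ± 0.23 (SE). It was -0.011 without CD11b-negative replicate 1. Larger values came from the 2 dimmer probe sets. Probe set 1447873_x_at, which by the ending of its name may bind other transcripts too, had 52.5 and 60.8 in CD11b-positive, against 26.1 and 50.4 in CD11b-negative arrays. Its difference was 0.60 ± 0.37 (SE), or 0.93 with the One-Cycle and 0.26 with the 3' IVT Express kit. Probe set 1448560_at had 54.8 and 31.9 in CD11b-positive, against 39.1 and 22.7 in CD11b-negative arrays, a difference of 0.45 ± 0.41 (SE). Without CD11b-negative replicate 1 the first of these was 0.16, and without CD11b-positive replicate 1 the second was 0.082. None passed by limma (adjusted p = 0.979 to 0.985, and 0.268 to 0.776 with the block).

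The effector Bak1, which forms pores in the mitochondrial membrane, was also somewhat higher in the CD11b-positive fraction. Its tested probe set, 1418991_at, had 65.2 and 87.3 in the CD11b-positive arrays, against 49.3 and 69.5 in the CD11b-negative arrays. Within each kit the CD11b-positive array was higher, by 0.38 and 0.32, although the fractions overlapped across kits. The difference of 0.35 ± 0.31 (SE), 1.28-fold, did not pass (limma adjusted p = 0.985, and 0.479 with the block), and it was 0.11 without CD11b-negative replicate 1. A second Bak1 probe set, 1425716_s_at, was too dim to be tested, at 23.3 and 7.73 in the CD11b-positive arrays, against 4.18 and 3.92 in the CD11b-negative arrays; 3 of the 4 lie below the filter of 10.6, and no fold is given.

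The balance of survival and death genes was taken as the mean difference of the anti-apoptotic genes minus that of the pro-apoptotic genes, each gene by its brightest probe set. The 3 anti-apoptotic genes averaged -0.47 and the 5 pro-apoptotic genes -0.18, so both sides stood lower in the CD11b-positive fraction and the balance was -0.29. It was -0.31 with the One-Cycle kit (anti-apoptotic -0.39, pro-apoptotic -0.074) and -0.27 with the 3' IVT Express kit (-0.55 and -0.29). The pro-apoptotic side was split, with Bak1 and Bid above 0 in both kits and Bcl2l11, Bbc3 and Pmaip1 below 0 in both. The balance rested on few values. Without Bcl2 it came to -0.071 (0.033 for One-Cycle, -0.17 for 3' IVT Express), and leaving out probe sets whose names mark possible cross-hybridisation it was -0.14. On leaving out a CD11b-positive array it was -0.53 (replicate 1) or -0.055 (replicate 2), and on leaving out a CD11b-negative array -0.031 (replicate 1) or -0.55 (replicate 2). The kits are then uneven between the fractions, so these values also hold part of the kit difference. With the mean of all tested probe sets per gene the balance was -0.17, from -0.22 for the anti-apoptotic and -0.052 for the pro-apoptotic genes. The pro-apoptotic mean was then 0.074 with the One-Cycle and -0.18 with the 3' IVT Express kit, so that side was not lower in both. These are descriptions of transcript signals without a test, and the arrays do not measure protein.

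**Figure D3:**
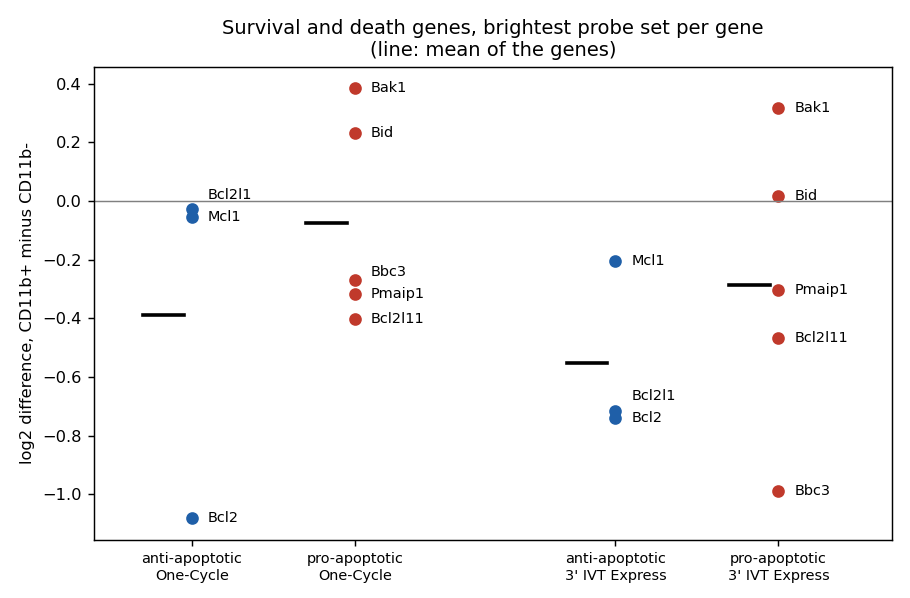
log2 difference between the CD11b-positive and the CD11b-negative array (vertical axis, log2 of signal + 3) of the brightest probe set of each gene, with the 3 anti-apoptotic genes in blue and the 5 pro-apoptotic genes in red, by labelling kit; black lines are the means of the genes. The anti-apoptotic mean lies below the pro-apoptotic mean in both kits, and the pro-apoptotic genes spread on both sides of 0.

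Signals also differed between the labelling kits, in the family as over the whole array. The difference between the kits was taken as 3' IVT Express minus One-Cycle, averaged over the fractions. It was larger in size than that between the fractions for 15 of the 24 (62.5%), near the 57.4% of all tested probe sets. Its median size was 0.49 log2, and that of the fraction difference 0.29; over all tested probe sets these were 0.33 and 0.26. Probe sets of the same gene moved apart: Bcl2 1437122_at was higher with 3' IVT Express by 0.54 and Bcl2 1443837_x_at differed by -0.85. Of Mcl1, 4 probe sets had kit differences from 0.50 to 0.66, while the brightest had 0.051 and 1416881_at 0.11. Each kit was used for 1 replicate of each fraction and with 1 amount of RNA. The effects of kit, RNA input and any difference between the replicates cannot be told apart.

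**Figure D4:**
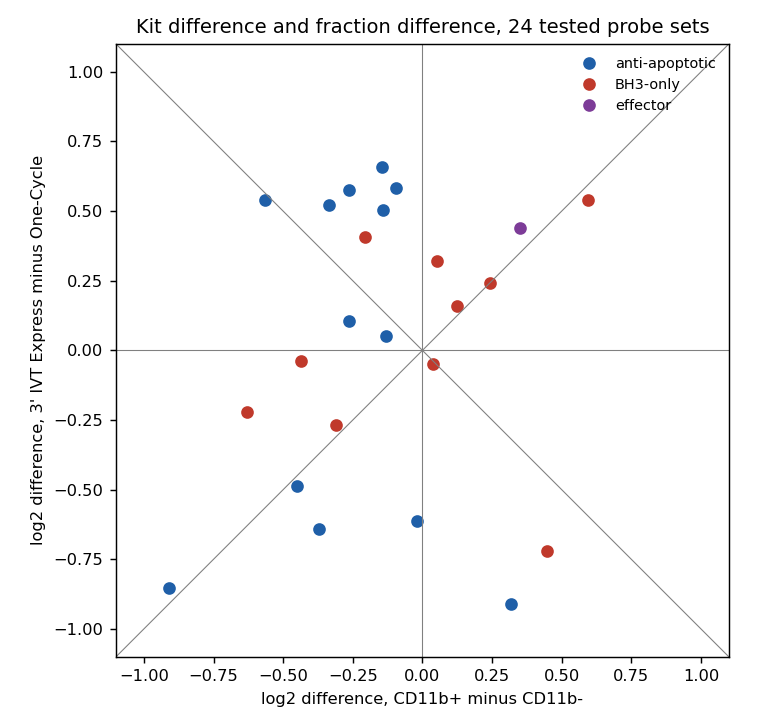
Difference between the labelling kits (vertical axis, 3' IVT Express minus One-Cycle, log2) against the difference between the fractions (horizontal axis, CD11b-positive minus CD11b-negative, log2), 1 point per tested probe set, coloured by role, with diagonals where both are of equal size. In 15 of the 24 the point lies in the upper or lower sector, where the kit difference is the larger.

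Of 16 further relatives of the family, 12 could be named on the array, and all 12 were tested by their brightest probe set. With limma 0 differed; with the kit as a replicate block 1 was lower and 0 higher, where 3.38% of all genes taken so were called lower and 2.79% higher. Their median difference was -0.20, against 0.0025 over all genes taken so. By kit it was 0.0086 with the One-Cycle and -0.51 with the 3' IVT Express kit. With both kits 1 was higher and 4 were lower, while 7 went opposite ways. Among all genes 31.6% were higher and 30.5% lower with both. The 1 called with the block was Bmf, a BH3-only gene like Bcl2l11, at 161 and 190.3 in the CD11b-positive arrays, against 257 and 316 in the CD11b-negative arrays. The fractions did not overlap, and the difference was -0.70 ± 0.24 (SE), or -0.67 with the One-Cycle and -0.72 with the 3' IVT Express kit (limma adjusted p = 0.903, and 0.00762 with the block). Bok, an effector-like member, had 6.66 and 16.5 in CD11b-positive, against 22.2 and 25.1 in CD11b-negative arrays, a difference of -0.95. Bcl2l12 was at 0.38 and Bcl2l15 at -0.35, neither called in either fit. The kits went opposite ways for Bcl2l15 (0.053 with the One-Cycle and -0.76 with the 3' IVT Express kit).

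Downstream of the mitochondrion, 17 of 19 genes of the apoptosome, caspases and their inhibitors were tested, with a median of 0.017. Limma called 0. With the block 1 was higher and 2 lower, where 2.79% of all genes taken by their brightest probe set were called higher and 3.38% lower. The higher one was Cycs, which encodes the cytochrome c that leaves mitochondria when Bax and Bak open them, at 2743 and 2590.3 in CD11b-positive, against 2066 and 1938 in CD11b-negative arrays (0.41 ± 0.13 (SE), limma adjusted p = 0.00567 with the block). The lower ones were Birc3, an inhibitor of apoptosis protein, at 463 and 542 in CD11b-positive, against 636 and 700.4 in CD11b-negative arrays (0.0456 with the block), and Vdac1, a channel of the outer mitochondrial membrane, at 404 and 404 in CD11b-positive, against 649 and 483 in CD11b-negative arrays (0.0427). Casp9, the initiator caspase of the apoptosome, was at -1.25 with the One-Cycle and 0.049 with the 3' IVT Express kit. Of 8 death receptor genes 6 were tested and 0 were called in either fit, with a median of -0.0020. Fas, the death receptor, was at 0.50, Casp8 at 0.18, Fadd at -0.26 and Cflar, the inhibitor of caspase-8, at -0.16. The kits went opposite ways for Fadd (-0.75 with the One-Cycle and 0.22 with the 3' IVT Express kit).

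Upstream, 22 of 24 regulators were tested, with a median of -0.14. Limma called 0. With the block 5 were lower and 0 higher, where 3.38% of all genes taken by their brightest probe set were called lower and 2.79% higher. The lowest p belonged to Tnfrsf13c, the receptor for the B cell survival factor BAFF, at 157 and 203 in the CD11b-positive arrays, against 282 and 382 in the CD11b-negative arrays (-0.87 ± 0.26 (SE), limma adjusted p = 0.903, and 0.000885 with the block). Rela, an NF-kB subunit, was at -0.46, Tnfrsf13b, the receptor TACI, at -0.33, and Stat3, the signal transducer of interleukin-6, at -0.49; limma with the block gave them adjusted p-values of 0.0238, 0.0322 and 0.0357. The fifth was Pim1, a survival kinase, at -0.34 (0.022 with the block). Tnfrsf17, the receptor BCMA that maintains Mcl-1 in plasma cells, had 1853 and 1872 in CD11b-positive, against 1858 and 2041 in CD11b-negative arrays, a difference of -0.064. Of the FOXO factors, Foxo1 was at -0.21 and Foxo3 at -0.010. Pim1, Tnfrsf17, Foxo1 and Foxo3 were named after their values were seen.

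Other differences between the fractions ran beside those of the family. Of 16 epithelial markers, 15 were lower with both kits and 0 higher, with summed signals of 3789 and 2688 in CD11b-positive, against 7016 and 7236 in CD11b-negative arrays and none below the filter. Of 12 tested T and NK cell markers 8 were lower and 1 higher with both kits, summing to 2908 and 1517 in CD11b-positive, against 5799.7 and 2187 in CD11b-negative arrays. Mature B cell markers, 10 tested, summed to 2789 and 1974 in CD11b-positive, against 4571 and 1985 in CD11b-negative arrays, and 3 were lower and 1 higher with both kits. Without Cd79a, their brightest marker, the sums were 1129.9 and 1507 in CD11b-positive, against 1635 and 1347 in CD11b-negative arrays, so the kits then differed in direction. Bcl2 is also expressed in mature B and T cells. Of 16 immediate early genes 13 were lower and 1 higher with both kits, summing to 21249.6 and 16722 in CD11b-positive, against 31214 and 26948 in CD11b-negative arrays, and all 11 tested cell division genes were higher with both, summing to 5959 and 4355 in CD11b-positive, against 3019 and 1996 in CD11b-negative arrays. Of 11 tested macrophage and dendritic cell markers 5 were higher and 3 lower with both kits (median 0.45), and the sums were 2473 and 2651 in CD11b-positive, against 3547 and 3842 in CD11b-negative arrays. The lower sum came from 1 bright marker, Cst3, at 1744 and 2123 in CD11b-positive, against 3085 and 3439 in CD11b-negative arrays. Without it the sums were 729 and 528 in CD11b-positive, against 462 and 403 in CD11b-negative arrays, higher with both kits. The median difference was 0.71 with the One-Cycle and -0.0097 with the 3' IVT Express kit. Cx3cr1 and Mrc1 were below the filter. Of 6 tested granulocyte and mast cell markers 1 was higher and 3 lower, with a median of -0.39 and sums of 222 and 191 in CD11b-positive, against 321 and 252 in CD11b-negative arrays, and with S100a8, S100a9, Epx, Siglecf and Cxcr2 below the filter. Of 12 plasma cell markers 10 were lower and 1 higher with both kits, with a median of -0.13. With the kit as a replicate block, limma called 2 of them lower, Cd93 (-1.33) and Sdc1 (-0.61), and 0 higher. Over all genes taken by their brightest probe set that fit called 3.38% lower and 2.79% higher. The probe set of Sdc1 may bind other transcripts too, by the ending of its name. Beta-actin control probes near the 3' end were brighter than those near the 5' end, a gap that widens in broken RNA, by 1.43-fold and 1.61-fold on the CD11b-positive arrays, and by 1.9-fold and 1.84-fold on the CD11b-negative ones. For the Gapdh controls the 3' to 5' ratio was 0.682 and 0.710 on the CD11b-positive, against 0.685 and 0.704 on the CD11b-negative arrays, with no gap of that kind and overlapping fractions. The Cd79a and Cst3 sums were looked at, and Cd93 and Sdc1 named, after the values were seen. The part of these cell types and of RNA quality in the values of the family was not tested.

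**Figure D5:**
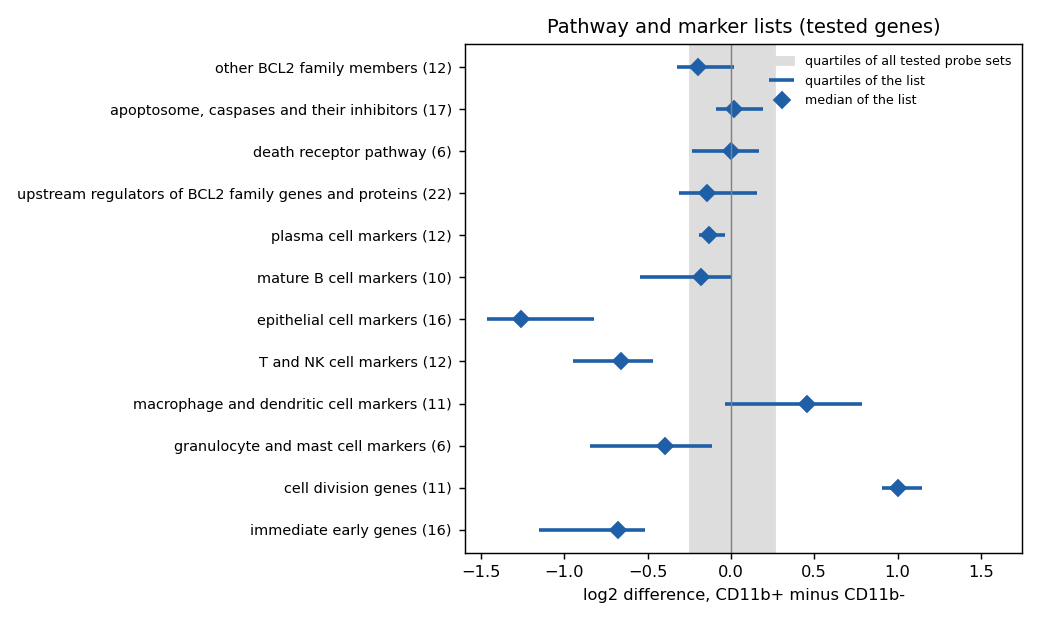
Median (diamond) and quartiles (line) of the log2 difference between the CD11b-positive and the CD11b-negative fraction over the tested genes of each list, with the number of genes in brackets; the grey band gives the quartiles of all tested probe sets. The 4 apoptosis lists lie within or near the band, the epithelial, T and NK cell and immediate early lists to its left and the cell division genes to its right.

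The genes whose pattern was most like that of 3 anti-apoptotic members were sought among 12649 other genes, each gene by its brightest probe set. Likeness was the smallest root mean square deviation of centred log2 signals over the 4 arrays. The other probe sets of Bcl2 and Bcl2l1 had other patterns, so what follows holds for the brightest ones only, for Bcl2 1443837_x_at and for Bcl2l1 1420888_at. For Bcl2 these were Fcer2a, the low-affinity IgE receptor of mature B cells (deviation 0.0333 log2), Mlxipl (0.0608) and Gata2 (0.083), and 150 genes lay within 0.25. Fcer2a had signals of 20.6 and 10.98 in the CD11b-positive arrays, against 45.5 and 21.7 in the CD11b-negative arrays. Mlxipl had 74.5 and 46.8 in CD11b-positive, against 148 and 78.5 in CD11b-negative arrays. For Gata2 they were 27.6 and 16.1 in CD11b-positive, against 56.2 and 31.3 in CD11b-negative arrays. For Mcl1, Grina, Selenof and Gpx1 were nearest, at 0.00971 to 0.0126, with 5348 genes within 0.25, so its near-flat pattern was common. For Bcl2l1 the nearest were Syde1, Ugt2b36 and Bpnt1, at 0.0288 to 0.036. With 4 arrays such likeness is a description of few numbers.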

How the data were processed

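The deposited numbers are linear probe set intensities. Per the submitters' processing notes the authors computed them with MAS5 in Affymetrix Expression Console, with no version or scaling target given. The platform annotation gives 1 gene for 34945 of the 45101 probe sets, several for 932 and none used here for 9160; the other 64 are controls. All 27 member gene identifiers were found in the RefSeq gene table of GRCm38.p6, with the same symbols.

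Here, signals were quantile-normalized without the controls and log2(signal + 3) was taken. A mean above the 40th percentile left 27022 probe sets. These went into limma 3.58.1 (R 4.3.3; lmFit and trended eBayes, 2-sided, with a Benjamini-Hochberg threshold of 0.05) without a block, as planned. The labels' protocols pair the arrays by labelling kit, and same-kit deviations from the fraction means correlated across probe sets (r = 0.418), so the fit with the kit as a replicate block is given beside it. The scripts were tested on simulated data. Named genes were all members, Itgam, the 4 genes with the smallest p in each apoptosis list and the 3 nearest patterns for Bcl2, Mcl1 and Bcl2l1. Members and lists were chosen with earlier results of these data known. Alternatives were other scalings, pseudocounts, filters, probe set rules, the block, no trend and leaving out each array.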

Additional observations from a re-analysis of the deposited data

Results flagged for a closer look

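Bcl2 probe set 1422938_at went opposite ways in the 2 labelling kits by more than 0.25 log2 in each: -0.38 with the One-Cycle and 0.33 with the 3' IVT Express kit (CD11b-positive minus CD11b-negative), with 1 array per fraction and kit. The difference between the kits was not tested. Such opposite values were found for 1 of the 24 tested member probe sets (4.17%) and for 11.8% of all tested probe sets. No group has the 4 or more samples that a search for outlying samples needs.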

How the results depend on the processing

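Every setting without the block called 0 probe sets except leaving out 1 array (0 to 3 called); the kit as a replicate block gave 1387 calls. Leaving out 1 array makes the kits uneven between the fractions. Within these alternatives the balance was -0.14 without _x_at and _s_at probe sets and -0.17 when a gene's probe sets were averaged, and it ran from -0.55 to -0.031 on leaving out 1 array. Chosen after seeing the data, leaving 1 gene out of the mean gave -0.071 (Bcl2), -0.34 (Bcl2l1), -0.46 (Mcl1), -0.35 (Bcl2l11), -0.40 (Bbc3), -0.21 (Bid) and -0.16 (Bak1), and -0.32 without Pmaip1; it stayed at -0.27 to -0.30 under the other scalings, pseudocounts and filters and at -0.29 with the block. The values without 1 array also hold part of the kit difference, since the kits are then uneven. What else moved the balance was not tested.

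The median of all tested probe sets moved to 0.40 on the signals as deposited and to 0.19 after scaling to the median, and values under other scalings are given relative to it. Among the probe set differences under settings that keep all 4 arrays, 226 kept their direction and call, 2 gained a call (Bcl2 1443837_x_at and Bcl2l11 1456005_a_at with the block) with the block changing no other member's call, and 9 changed sign. These were Mcl1 1456243_x_at (0.033, 0.022, 0.011), 1416880_at (0.039, 0.028, 0.016) and 1456381_x_at (0.072, 0.061, 0.050), on the signals as deposited, scaled to the median and scaled to a trimmed mean. On leaving out 1 array the sign changed for some arrays in these ranges: Mcl1 1456243_x_at -0.49 to 0.20, 1416880_at -0.42 to 0.13, 1456381_x_at -0.44 to 0.25 and 1437527_x_at -0.59 to 0.060; Bcl2 1422938_at -0.50 to 0.46 and 1457687_at -0.77 to 0.10; Bcl2l1 1420888_at -0.87 to 0.12 and 1420887_a_at -0.19 to 0.83; Bcl2l11 1426334_a_at -0.25 to 0.36, 1435448_at -0.45 to 0.033 and 1456006_at -0.066 to 0.14; Bid 1417045_at -0.011 to 0.26. Signals near the filter of 10.6 limit what the dim probe sets of Bcl2l1 and Bak1 can show.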
